A study of Homo sapiens with 36 samples.

Results

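The Fos-family genes FOS, FOSB, FOSL1 and FOSL2 encode the 4 Fos-family proteins, which pair with Jun proteins, and their loci were examined for chromatin occupancy in 2 lung cell lines. The 4 genes were chosen by name among 20033 protein-coding genes of the annotation. Peaks within 3 kb of any of their start sites were taken from 16 peak lists, together with Jun-family peaks within 100 kb. The lists came from chromatin immunoprecipitation with sequencing (ChIP-seq) in A549, a human lung adenocarcinoma line, and in BEAS-2B (B2B), an immortalized human bronchial epithelial line. The labels name no treatment for either line. The labels gave 36 samples in 18 groups of 2 replicates, of which 4 were input chromatin, and the replicates of each target had been merged into 1 list per line. JunB, Jun, JunD, RNA polymerase II (pol II), H3K4me3, H3K27ac and the Mediator subunit Med1 had a list in each line, and CTCF and the cohesin subunit Rad21 had one in B2B.

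No value below has a replicate error, because each list pools its replicates, and no difference between the lines could be set against replicate spread or tested. Lists held from 8563 peaks (JunB in B2B) to 61225 peaks (CTCF in B2B), and read totals per library were not part of the lists. The A549 H3K27ac list ended on chromosome 13 and both Med1 lists ended on chromosome 15. FOS on chromosome 14 could therefore be read in 15 lists and FOSB on chromosome 19 in 13, whereas FOSL1 and FOSL2 were covered by all 16. As a check of the labels, 5 of 6 epithelial and 4 of 4 mesenchymal marker genes had an H3K4me3 peak in each line. KRT19 had none in either line. Of 3 blood markers, PTPRC had one in A549 and none had one in B2B, and neither of the 2 endothelial markers had one in either line. CDKN2A and CDKN2B, in the 9p21 segment that A549 is known to lack, had an H3K4me3 peak in B2B and none in A549. MTAP, the other gene listed for that deletion, had one in both lines.

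Fos and Jun proteins are basic leucine zipper factors that bind DNA as a pair, called AP-1, at the sequence TGAGTCA or TGACTCA. Jun proteins can pair with one another or, with a Fos protein, form a more stable dimer, whereas Fos proteins do not bind stably alone. FOS and FOSB are immediate early genes that growth factors switch on within minutes through serum response factor at a CArG box and through CREB or ATF factors at a cAMP response element (CRE). FOSL1, which encodes Fra-1, and FOSL2, which encodes Fra-2, are later and longer-lived members, known as AP-1 targets themselves, and FOSL1 is active in many epithelial tumours. A peak says that fragments piled up over a site in the pool of cells, so that a site bound in few cells and one bound weakly in many cannot be told apart.

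The exact motif matches under the Jun-family peaks differed between the immediate early members and the others. The following windows are from hg38, lie under A549 Jun-family peaks within 3 kb of a start and are written 5′ to 3′ on the strand of the gene. Capitals mark exact matches to the AP-1 sequence, to the CRE (TGACGTCA) or to the CArG box. They are shown because they are all the matches of these motifs under those peaks.
FOS promoter, chr14:75278479-75278558: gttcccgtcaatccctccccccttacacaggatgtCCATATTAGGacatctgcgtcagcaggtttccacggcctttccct
FOSB promoter, chr19:45467636-45467766: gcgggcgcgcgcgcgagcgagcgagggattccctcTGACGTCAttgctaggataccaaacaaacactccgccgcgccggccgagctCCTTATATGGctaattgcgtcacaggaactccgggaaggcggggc
FOSL1 intron, chr11:65899351-65899427: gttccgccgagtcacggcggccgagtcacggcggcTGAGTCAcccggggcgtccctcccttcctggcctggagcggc
FOSL1 start, chr11:65900372-65900400: cacggcgcgggTGAGTCAgaacccagcag
FOSL2 start, chr2:28392851-28392879: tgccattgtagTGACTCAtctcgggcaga
At FOS the CArG box lay -305 bp from the canonical start and 30 bp from the A549 JunB summit. The Jun-family peaks within 3 kb of FOS held neither an exact AP-1 nor an exact CRE match. Near matches were not searched, and the printed FOS and FOSB windows each hold TGCGTCA, which differs from TGAGTCA at 1 base. At FOSB the A549 Jun summit fell inside the CRE, the JunD summit lay 3 bp from it and the B2B Jun summit lay 18 bp from the nearer of the CRE and the CArG box. At FOSL1 the intronic AP-1 match contained the A549 JunB summit and lay 11 bp from the Jun and 9 bp from the JunD summit. The match at the FOSL1 start contained the JunD summit and lay 5 bp from the Jun summit. At FOSL2 the match lay 2 bp from the A549 JunD summit, 18 bp from the A549 Jun and 21 bp from the A549 JunB summit, and 10 bp from the JunB and 20 bp from the Jun summit of B2B. The matches at the FOSL1 and FOSL2 starts overlap annotated 5′ untranslated sequence and are shown as short target sites. Among 35116 RefSeq promoters of 300 bases (GRCh38.p14), 4.95% held the AP-1 sequence, 1.85% the CRE and 1.29% a CArG box on either strand. FOS, FOSB and FOSL2 matched an entry of that table, and FOSL2 was the 1 of them with an AP-1 match. The motifs of FOS and FOSB shown above lie farther upstream than that window.

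To ask which Fos-family genes carry Jun-family proteins at their starts, the members with a peak within 3 kb were counted in each line. In A549 all 4 members had a JunB peak, all 4 a Jun peak and all 4 a JunD peak. Over all protein-coding genes 31.1% had JunB, 38.2% Jun and 17.8% JunD, and 13.7% had all 3 proteins. In B2B all 4 members had a Jun peak, against 25.4% of genes. FOSL2 alone had a JunB peak, against 5.28% of genes, and none had a JunD peak, against 3.21% of genes. No member had all 3 proteins in B2B, where 2.61% of genes did. All 4 members had the 3 proteins in A549 and fewer in B2B, a pattern of 12.3% of genes, and all 4 had JunD in A549 and not in B2B, a pattern of 16.2% of genes. Among the 12186 genes with an H3K4me3 peak in both lines 44.2% had JunB in A549, 53.4% Jun and 26.7% JunD. In B2B the shares were 7.11%, 33.5% and 4.43%. Within 1 kb of a start the B2B Jun count fell from 4 members to 2, since the peaks at FOS and FOSL1 lay farther upstream, whereas the A549 counts stayed at 4.

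**Figure D1:**
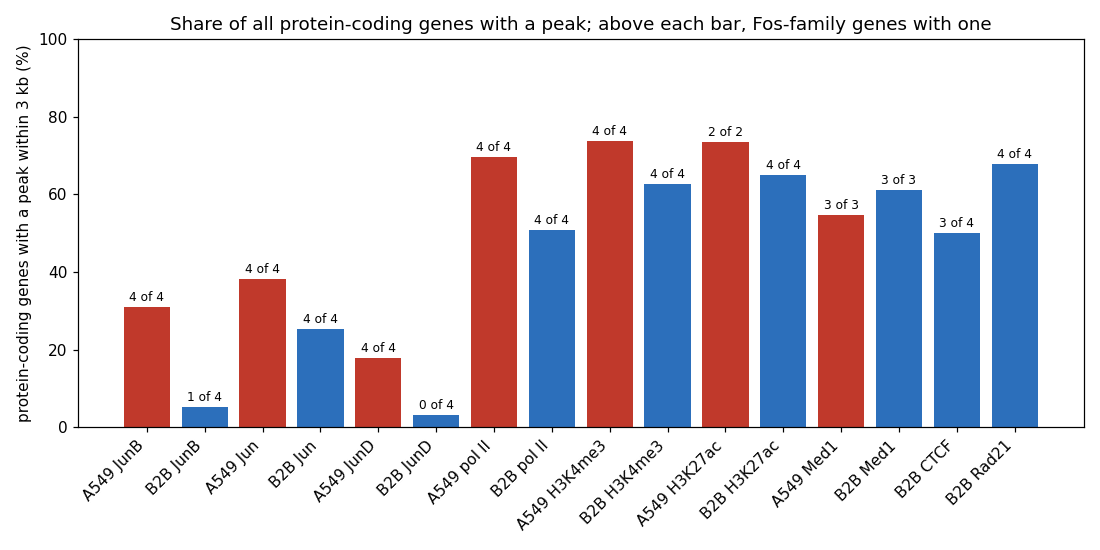
Share of protein-coding genes with a peak within 3 kb of a start site in each list (bars, percent; red A549, blue B2B), with the number of Fos-family genes that had one out of those the list covers. The share for JunD is 17.8% in A549, where 4 of 4 members had a peak, and 3.21% in B2B, where 0 of 4 did.

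FOSL2 carried the highest Jun peak of the 4 genes in A549. FOSL2 (ENSG00000075426.12, chr2:28392448-28417317, plus strand) had a Jun peak of 48.5-fold enrichment over the background of the caller, -14 bp from the nearest start. That value was above 97.8% of the Jun peaks in the list. JunB reached 25.5-fold there, above 97.2% of its list, and JunD reached 9.51-fold, above 89.4%. In B2B the same start had a Jun peak of 3.97-fold and a JunB peak of 2.77-fold, above 2.74% and 2.16% of their lists, with summits -16 and 20 bp from a start. The summits of both lines thus lay within 21 bp of the AP-1 match shown above, at enrichments near the top of the lists in A549 and near the bottom in B2B. By reads the B2B Jun peak was not low in its list, with 104 reads at the summit against a median of 25 over a sample of the list. Its local background was 21.8 times the lowest of that sample. A549 had further peaks at FOSL2 that B2B did not, among them JunB at 3.09-fold and JunD at 5.49-fold at -131 and -146 bp. JunB peaks of 3.55-fold and 5.13-fold lay -2048 and -1346 bp from a start, over the antisense non-coding gene FOSL2-AS1. A pair of JunB and Jun peaks of 7.39-fold and 6.92-fold lay 1267 and 1430 bp beyond the last start, by the non-coding gene ENSG00000270640. FOSL2-AS1 and ENSG00000270640 are the genes whose own start lies within 3 kb of a FOSL2 start, and reads there cannot be assigned to one of them.

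FOSL1 had 3 separate Jun sites within 3 kb in A549, of which 1 was also called in B2B. FOSL1 (ENSG00000175592.9, chr11:65892049-65900573, minus strand) carried its highest A549 peaks in an intron 985 bp after the start, where Jun was 43.5-fold, JunB 22.4-fold and JunD 9.20-fold. At the start itself Jun was 24.8-fold, JunB 18.7-fold and JunD 6.84-fold. The third site lay -2781 bp from the nearest start, with Jun at 37.9-fold and JunB at 8.06-fold and no JunD peak. In B2B the upstream site had a Jun peak of 11.5-fold, above 64.2% of that list, with its summit -2776 bp from the start. No Jun-family peak was listed in B2B at the start or in the intron, the positions with an AP-1 match. The background of the caller in B2B at those positions exceeded the lowest value of each list 28.7 times for pol II, 25.5 times for H3K4me3, from 26.8 to 28.1 times for H3K27ac and from 23.4 to 27.9 times for Rad21, against 5.87 times for Jun at the upstream site, so that a missing call there does not show an absence. The upstream region that both lines shared held no exact match of the 3 motifs.

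FOSB was led by Jun over its CRE. FOSB (ENSG00000125740.15, chr19:45467995-45475179, plus strand) lies within the span annotated for ERCC1, a DNA repair gene on the opposite strand. The A549 Jun peak at -324 bp was 32.7-fold, above 92.8% of the Jun list. In the same region JunD was 4.56-fold at -314 bp and 4.32-fold at -51 bp and JunB 5.56-fold at -100 bp, the higher JunD peak above 24.4% and JunB above 29.3% of its list. A second A549 site inside the gene, 1301 bp from the canonical start, had Jun at 8.72-fold, JunD at 4.57-fold and JunB at 4.47-fold. Another, 2358 bp from it, had Jun at 8.47-fold and JunB at 6.79-fold. B2B had 1 peak, of Jun, at -299 bp and 3.91-fold, above 2.61% of its list.

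FOS had the lowest Jun enrichment of the 4 genes in each line. FOS (ENSG00000170345.10, chr14:75278826-75282230, plus strand) had its highest Jun peak -1685 bp from the start, at 9.96-fold and above 53.5% of the list, and JunB there was 10.03-fold, above 73.9%. Over the promoter with the CArG box Jun was 7.45-fold, JunB 6.25-fold and JunD 4.95-fold. Just after the start JunD had a peak of 4.27-fold and JunB one of 6.02-fold, and JunB had further peaks of 4.04-fold in the gene and 6.18-fold past its end. B2B had 1 peak, of Jun, at the upstream site, with a summit at -1730 bp and 2.85-fold enrichment, above 0.559% of its list.

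**Figure D2:**
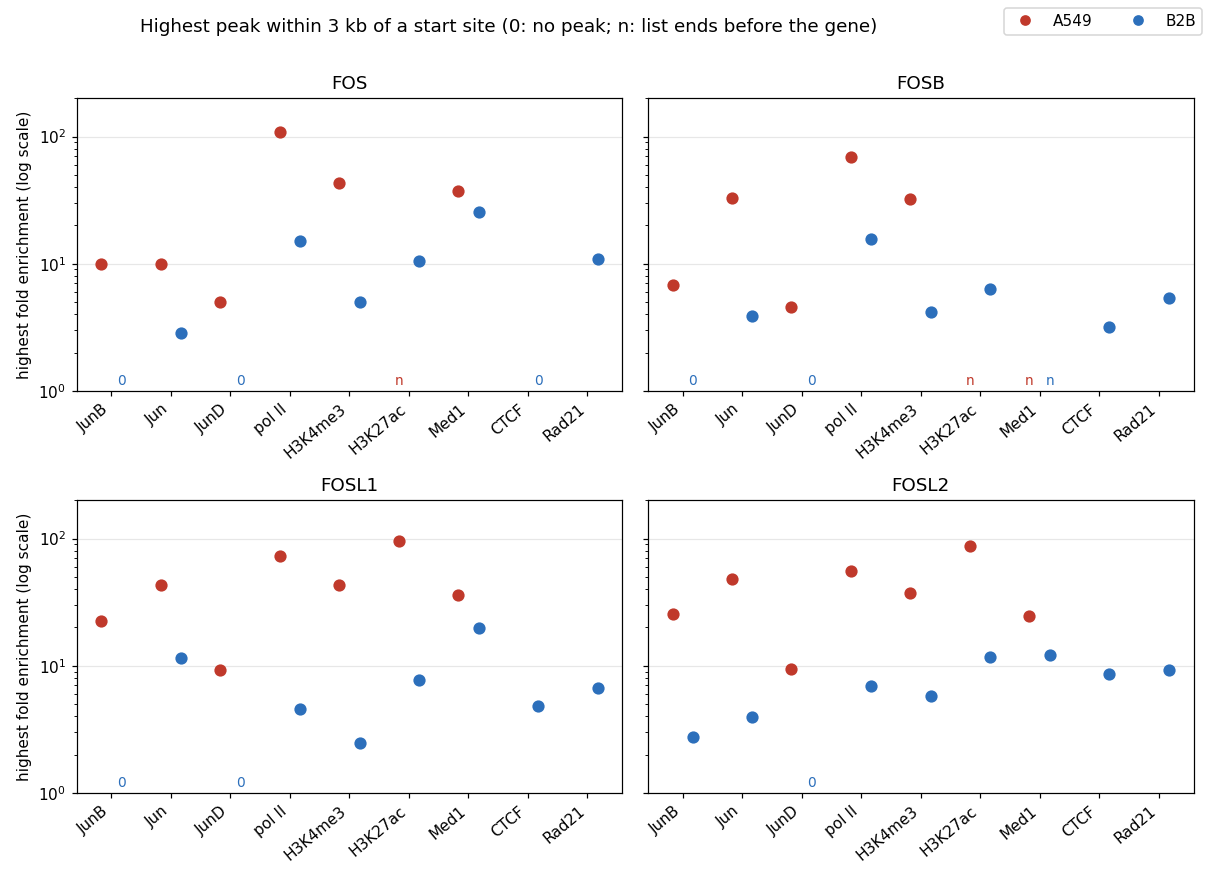
Highest fold enrichment within 3 kb of a start site (log scale) for each target at each gene, in A549 (red) and B2B (blue); 0 marks a list with no peak and n a list that ends before the gene, and CTCF and Rad21 are B2B lists. For every target with a peak in both lines the A549 point is above the B2B point, for example 48.5 against 3.97 for Jun at FOSL2, and the Jun points of FOSL1 are of different sites.

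Fold enrichment is the summit reads plus 1 over the local background of the caller plus 1, and that background differed between the lines at these genes. Solving fold enrichment and p-value for both terms gave whole read numbers for 100% of the peaks tried in each list, within 0.02 reads. The peaks tried were a regular sample of each list. The added 1 lowers the enrichment most where the background is low, as in A549. At FOSL2 the highest Jun peak stood on 140 reads in A549 and 104 reads in B2B, over backgrounds of 1.91 and 25.4 reads. At FOSB it stood on 103 and 102 reads, over 2.18 and 25.3. At FOS it stood on 29 reads in A549 and 84 in B2B, over 2.01 and 28.8. At the shared upstream site of FOSL1 there were 97 and 89 reads, over 1.58 and 6.84. The reads in B2B were thus fewer at FOSL2, close in number at FOSB and at the FOSL1 site and more numerous at FOS, while the background was higher in B2B at all 4. The number of reads in each library is unknown. The methods of the study describe a scaling of the merged reads between cell lines before peak calling, so the read numbers of the lines may already be scaled, and they are set side by side with no further correction.

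The lowest background among the sampled peaks of a list was taken as its genome-wide floor, which was 0.996 reads for Jun in A549 and 1.16 reads in B2B. The B2B background at the highest Jun peak was 24.7 times that floor at FOS, 21.8 times at FOSB and at FOSL2 and 5.87 times at FOSL1. Near start sites in general its median was 2.14 times the floor in the B2B Jun list, and the values of FOS, FOSB and FOSL2 were above 98.6% or more of such peaks. In A549 the background at the highest Jun peak of each member was from 1.74 to 2.19 times the floor. Against the floor in place of the local background, again with 1 added to both terms, an alternative added after seeing the data, the highest Jun peak was 15.0-fold in A549 and 39.3-fold in B2B at FOS. It was 52.1-fold and 47.6-fold at FOSB, and 70.7-fold and 48.5-fold at FOSL2. At the shared FOSL1 site it was 49.1-fold and 41.6-fold. The direction at FOS therefore turned, and the other differences were smaller than those of the deposited values. The deposited values and the floor-based values describe the same reads, and the part of the background in the difference between the lines was not tested.

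The same background sets what a missing call can show. At the floor a B2B JunD call needed 10 reads at its summit, but if its background were raised over its floor as much as that of the B2B Jun peaks it would need 79 reads at FOS, 71 at FOSB and 72 at FOSL2. Of the 860 JunD peaks sampled from the 8597 of the list, 4.53% reached 79 reads and 5.23% reached 71 or 72. For JunB in B2B the number was 81 reads at FOS and 73 at FOSB, which 5.83% and 7.23% of its 857 sampled peaks reached. The JunB peak that was called at FOSL2 stood on 112 reads. In A549 a JunD call needed from 13 to 15 reads at the 4 members. Under that assumption JunB and JunD at the starts of FOS and FOSB, and JunD at that of FOSL2, were not detectable in B2B below these numbers. At the start and intron of FOSL1 no B2B Jun peak gives a background, and the number needed there was not computed, but with the raised backgrounds of the other B2B lists given above the missing Jun, JunB and JunD calls are not shown to be absences either.

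**Figure D3:**
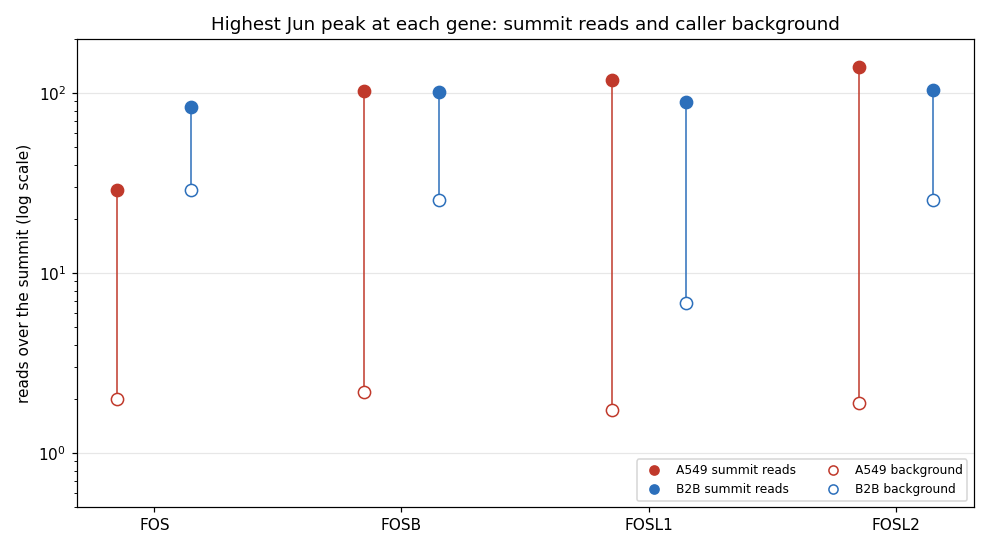
Reads over the summit of the highest Jun peak within 3 kb of each gene (filled) and the local background of the caller there (open), on a log scale, in A549 (red) and B2B (blue). The filled points of the lines lie close together except at FOS, with 29 and 84 reads, whereas the open points lie at 1.73 to 2.18 reads in A549 and 6.84 to 28.8 reads in B2B, and the FOSL1 points are of different sites.

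All members covered by a list had pol II, H3K4me3, H3K27ac and Med1 peaks at their starts in both lines, so that none lacked promoter marks in B2B. The shares of genes with such a peak were 69.6% and 50.9% for pol II in A549 and B2B, and 73.7% and 62.7% for H3K4me3. They were 73.5% and 64.9% for H3K27ac, and 54.7% and 61.1% for Med1. These shares are over the genes each list covers, in A549 and B2B 17906 and 20033 for pol II and 12763 and 20033 for H3K27ac. Most covered genes had such peaks too.

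Pol II covered FOS, FOSB and FOSL1 from end to end in A549. Its peak at FOS was 8050 bp wide, reached 109-fold and was above 99.6% of the list in height and 99.7% in width. At FOSB it was 10235 bp wide and reached 69.2-fold, and it ran on past the gene within the span of ERCC1, so its width is not that of FOSB alone. At FOSL1 it was 14048 bp wide and reached 73.3-fold, and it ran on past the gene over CCDC85B and into FIBP, so its width is not that of FOSL1 alone. At FOSL2 the start carried a peak of 7101 bp at 55.7-fold, and pol II peaks covered 92.0% of the 24870 bp gene. In B2B pol II covered 94.9% of FOS, 56.1% of FOSB, 52.1% of FOSL2 and 17.2% of FOSL1. The called extent depends on the local background as well. At FOSL1 92 reads at 946 bp after the start gave 1.90-fold, over a background 28.7 times the floor. A stretch with no B2B call therefore does not show an absence of pol II. The B2B summits with the highest enrichment at FOS and FOSB lay 2844 and 4211 bp after the nearest start, at 15.2-fold and 15.7-fold. Both lay past the annotated end of the gene, that of FOSB within ERCC1. Those summits stood on 100 and 104 reads over 5.65 and 5.67 reads of background. At the starts themselves B2B had 8.36-fold at FOS, 14.4-fold at FOSB, 4.59-fold at FOSL1 and 6.96-fold at FOSL2. The start peaks stood on 290, 266, 224 and 244 reads over backgrounds of 33.8, 17.6, 48.04 and 34.2 reads. In A549 they stood on 314, 317, 315 and 318 reads over backgrounds of 1.89, 3.59, 3.31 and 4.73 reads. Over the floor these A549 peaks were 119-fold, 120-fold, 119-fold and 120-fold, so the order of their enrichments follows the background. The highest deposited enrichment of that list was 125-fold, so these reads were near its top and do not show like occupancy. By reads, and over the floor, the B2B start peaks of FOS and FOSB were thus above the downstream ones, and the order by enrichment follows the lower background downstream. Among the members the B2B start of FOSL1 thus had the fewest pol II reads and the highest background.

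The H3K4me3 domain of FOSL2 was among the widest of A549. It measured 8209 bp, above 99.9% of the list in width, and reached 37.2-fold. The corresponding A549 domains measured 4839 bp at FOS, 3950 bp at FOSB and 3579 bp at FOSL1, with 42.8-fold, 32.1-fold and 43.02-fold at their summits. Those summits stood on 220, 222 and 224 reads and that of FOSL2 on 209 reads, so they were close by reads. Over the floor the FOSL1 summit was 65.6-fold, beside a highest deposited enrichment of 65.2-fold in the list. Whether reads so near the top of the list have an upper limit was not tested, so close reads do not show like occupancy. In B2B the widest domain was again that of FOSL2, 3847 bp at 5.74-fold, above 99.8% of the list in width. FOS had 1415 bp at 4.53-fold, FOSB 1065 bp at 3.47-fold and FOSL1 770 bp at 2.46-fold. The summits of these 4 B2B domains had backgrounds from 11.8 to 25.5 times the floor, against 1.72 to 2.45 times in A549. The widths of the lines were thus called under unlike backgrounds, and narrow B2B domains do not show an absence of the mark beside them. The B2B domain of FOSL1 was above 57.5% of its list in width and 24.9% in height, the lowest of the 4 genes by enrichment. Its summit had 157 reads over a background 25.5 times the floor, more reads than any FOSB peak, of which the highest had 141.

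H3K27ac, a mark of active promoters and enhancers, and Med1 were called at the starts of the members in both lines. In A549 H3K27ac reached 94.98-fold on 346 reads at FOSL1 and 87.2-fold on 344 at FOSL2, and that list ends before FOS and FOSB. Over the floor both were 154-fold, beside a highest deposited enrichment of 150-fold in the list. In B2B H3K27ac reached 11.7-fold at FOSL2, 10.5-fold at FOS, 7.78-fold at FOSL1 and 6.35-fold at FOSB. The FOSL1 summit was at the upstream Jun site, -2868 bp from the start. That peak had 72 reads, whereas the peak at the FOSL1 start had 299 reads at 7.56-fold, so the start was higher by reads and over the floor. Med1 in A549 reached 37.2-fold at FOS, 35.9-fold at FOSL1 and 24.4-fold at FOSL2, above 99.2%, 99.2% and 97.3% of the list. In B2B it reached 25.4-fold at FOS, 19.9-fold at FOSL1 and 12.1-fold at FOSL2, above 98.7%, 97.0% and 87.2%. The Med1 background at these summits was from 1.37 to 2.54 times the floor in A549 and from 1.73 to 3.41 times in B2B, so that Med1 was read over like backgrounds in the lines. At FOS the A549 Med1 summit lay 39 bp after the start and the B2B summit at -1491 bp, near the upstream Jun site.

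**Figure D4:**
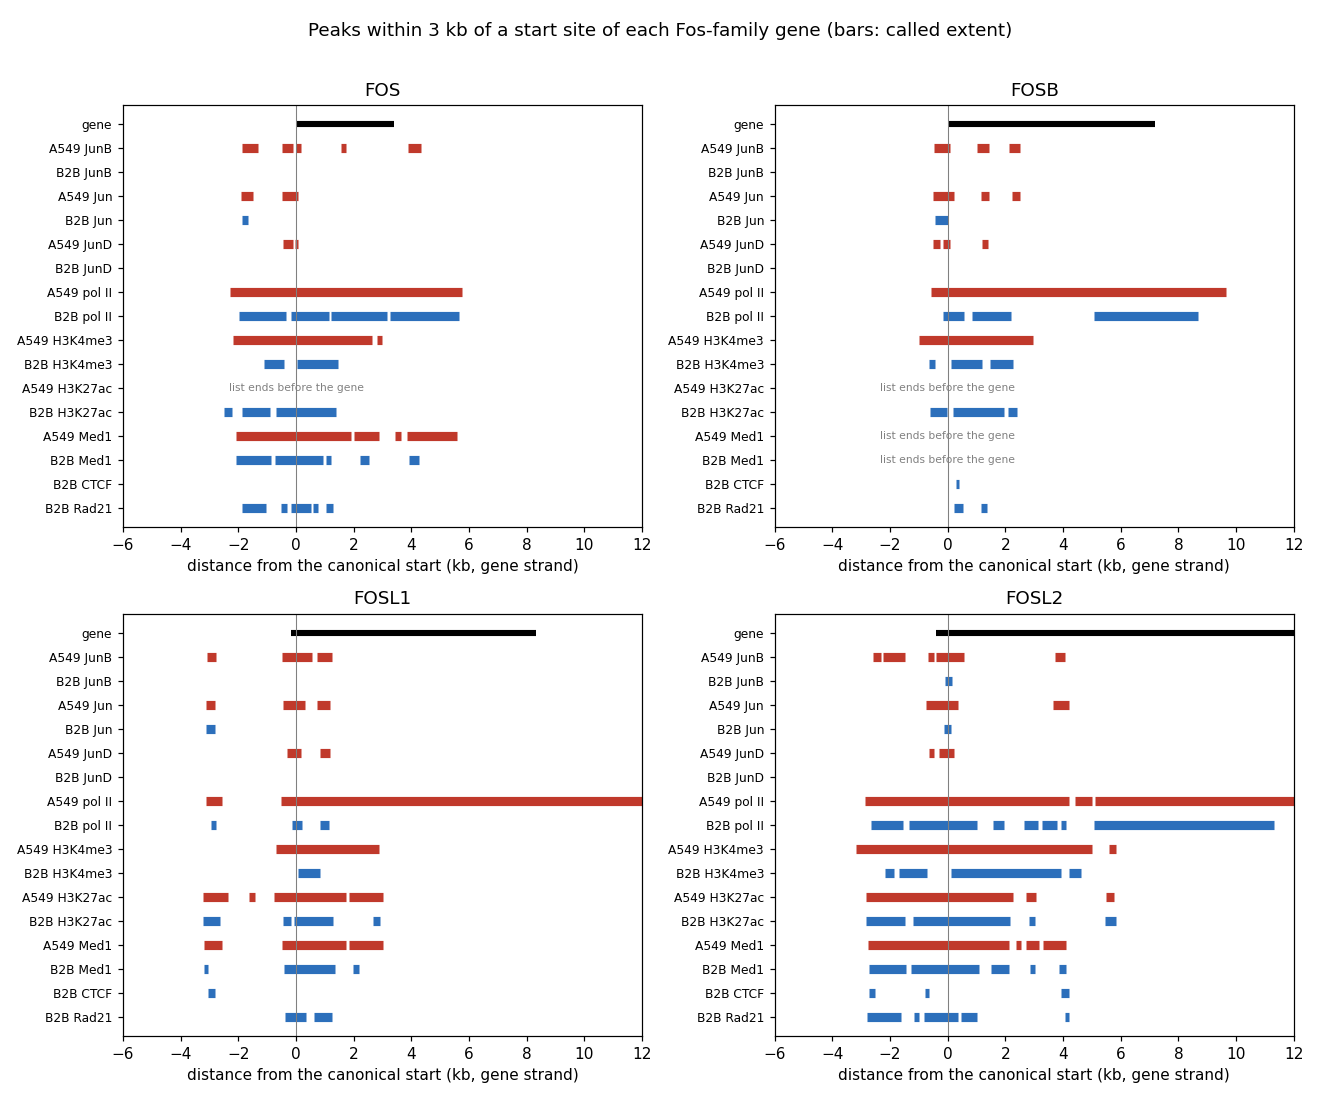
Called extent of every peak within 3 kb of a start site at each gene, against the distance from its canonical start in kb on the gene strand (red A549, blue B2B, black the gene; axes end at 12 kb). Pol II in A549 spans FOS in 1 peak of 8050 bp and FOSB in 1 of 10235 bp, which runs on within ERCC1. B2B Jun-family peaks are 1 at each of FOS, FOSB and FOSL1 and 2 at FOSL2.

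In B2B, Rad21 marked all 4 starts and CTCF 3 of them. Over all genes 67.9% had a Rad21 peak and 50.1% a CTCF peak. Rad21 was highest at the upstream Jun site of FOS, 10.8-fold with its summit -1709 bp from the start, by the B2B Jun summit at -1730 bp. At FOSL2 it reached 9.25-fold, at FOSL1 6.69-fold in the intron and at FOSB 5.39-fold. By reads and over the floor other Rad21 peaks of FOSL1 and FOSB were higher. The FOSL1 start had 143 reads, 81.4-fold over the floor, against 126 and 71.8-fold in the intron. FOSB had 77 reads, 44.1-fold, at 1281 bp from the canonical start, against 34 and 19.8-fold for its 5.39-fold peak. FOS had no CTCF peak within 3 kb. CTCF was 8.65-fold at FOSL2, 1413 bp after the nearest start, 4.80-fold at the shared upstream site of FOSL1 and 3.15-fold at FOSB. By reads the FOSL2 CTCF peak at -295 bp was higher, 83 against 77, and over the floor 33.4-fold against 31.1-fold.

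To see whether Jun-family occupancy near these genes goes beyond the starts, peaks of the 3 proteins in both lines were merged into regions. The 4 genes had 71 regions within 100 kb, of which 39 were called in A549 alone, 14 in B2B alone and 18 in both. All 3 proteins were called at 21 regions in A549 and 1 in B2B. The median over protein-coding genes was 5 regions in A549 and 4 in B2B. It was 3 in A549 alone, 2 in B2B alone and 2 in both, and 0 in each line for regions with all 3 proteins. In A549 FOS had 4 regions with all 3, FOSB 9, FOSL1 6 and FOSL2 2, more than 94.4%, 99.8%, 98.5% and 76.0% of genes. FOSL1 had the 1 of B2B, more than 71.6% of genes. FOSB had 27 regions in A549, more than 99.8% of genes, and 10 in B2B, more than 88.2%. FOSL1 had 11 in A549 and 2 in B2B, more than 88.1% and 24.8% of genes. FOS had 9 and 7, more than 79.7% and 74.5%. FOSL2 went the other way, with 10 in A549 and 13 in B2B, more than 84.6% and 94.1%. By called regions the difference between the lines was thus in favour of A549 at FOSB and FOSL1. It was small at FOS and FOSL2, where its size depended on how regions were drawn, and FOSL2 had more in B2B in each setting. The JunB lists held 28068 peaks in A549 and 8563 in B2B, and counts with all 3 proteins were not recomputed at equal length. B2B Jun background was also raised at distal FOSB regions, 13.1 times the floor at -12.06 kb and 23.2 times at 38.9 kb. A region with no B2B call therefore need not lack Jun-family binding. The neighbourhoods of FOSB and FOSL1 hold 7 and 11 other protein-coding genes with a start within 100 kb, so that their regions need not concern the member, whereas FOS has none and FOSL2 has PLB1.

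**Figure D5:**
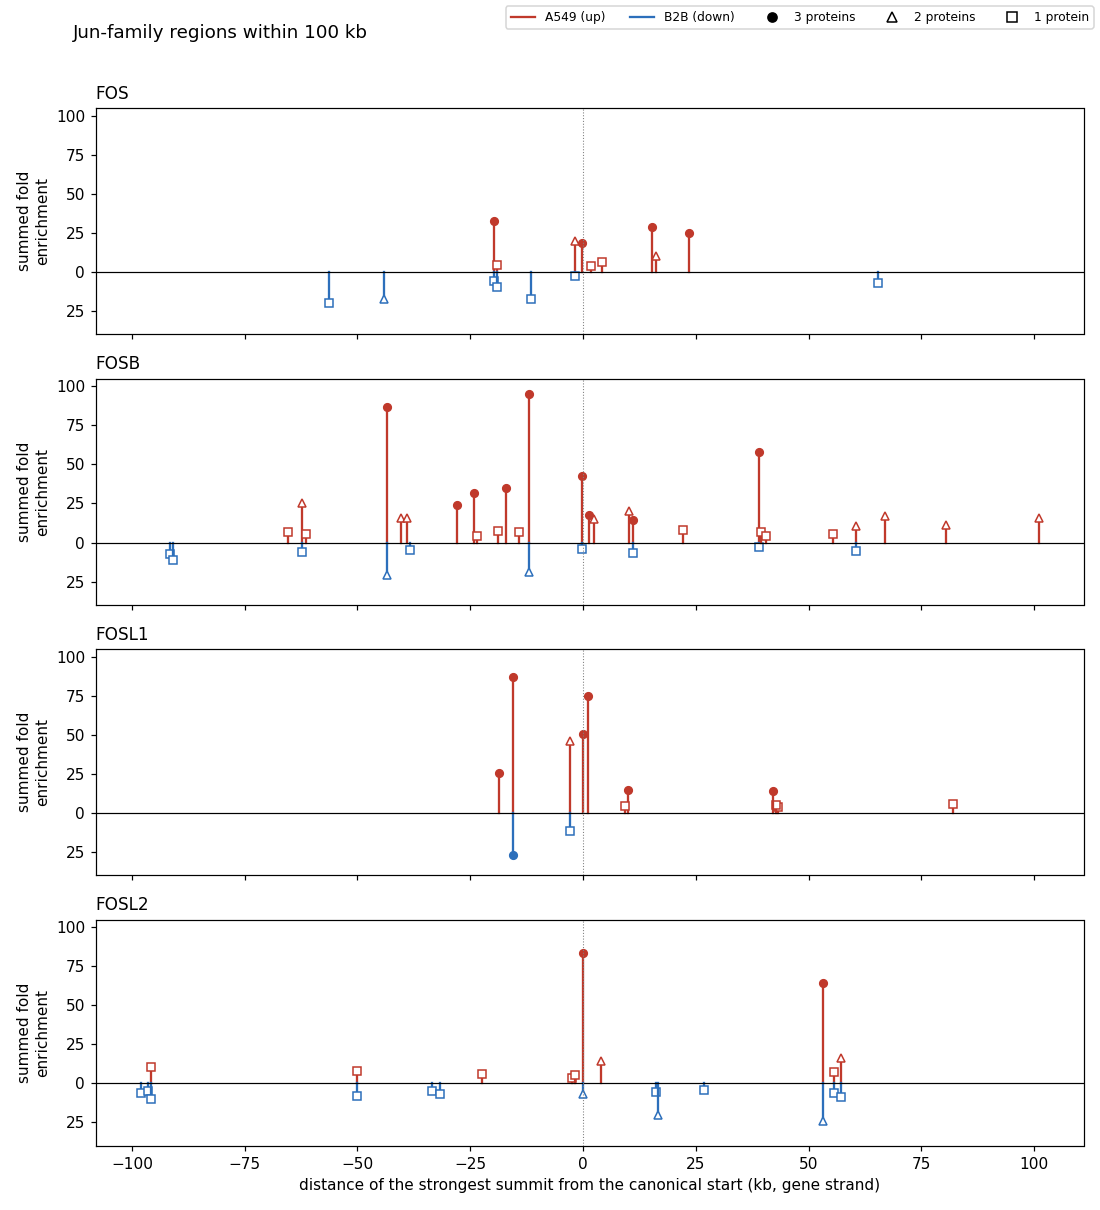
Jun-family regions within 100 kb of each gene, by the distance of the strongest summit from the canonical start (kb) and the summed fold enrichment of JunB, Jun and JunD in A549 (up, red) and B2B (down, blue); filled circles are regions with all 3 proteins, triangles 2 and squares 1. The B2B side has 1 filled circle, at -15.5 kb of FOSL1, against 21 on the A549 side, and the highest A549 sums are 95.4 at FOSB and 87.2 at FOSL1.

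The distal regions shared by the lines include some with the highest enrichment in B2B, and the matches under some of them are printed here, with B2B sites that A549 lacks for contrast. The sites upstream of FOSL1 and FOSB and the B2B sites of FOS and FOSL2 follow in the same style, with the AP-1 sequence in capitals.
FOSL1 upstream site a, chr11:65915880-65915956: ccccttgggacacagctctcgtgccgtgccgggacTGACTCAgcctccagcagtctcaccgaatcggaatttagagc
FOSL1 upstream site b, chr11:65915796-65915872: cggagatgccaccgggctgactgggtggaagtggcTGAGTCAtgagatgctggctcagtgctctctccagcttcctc
FOSB upstream site, chr19:45455859-45455935: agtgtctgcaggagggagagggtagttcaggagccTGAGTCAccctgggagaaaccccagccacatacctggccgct
FOS B2B site, chr14:75234689-75234765: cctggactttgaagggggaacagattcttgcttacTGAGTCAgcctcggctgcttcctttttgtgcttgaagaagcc
FOSL2 intronic B2B site, chr2:28409430-28409506: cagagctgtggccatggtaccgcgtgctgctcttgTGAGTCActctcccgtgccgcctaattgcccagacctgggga
The region at -15.5 kb of FOSL1 (chr11:65915509-65916136), between genes and nearest to the start of C11orf68, had all 3 proteins in each line and 2 AP-1 matches. In A549 Jun was 46.1-fold, JunB 33.7-fold and JunD 7.44-fold. In B2B Jun was 18.4-fold, JunB 5.64-fold and JunD 2.85-fold. Site a contained the A549 JunB summit and lay 11 bp from the A549 Jun summit, and from 17 to 21 bp from the 3 B2B summits. Over the floor of each list Jun was 96.7-fold in A549 and 96.6-fold in B2B. In A549 3 more regions of FOSL1 outside the gene had all 3 proteins and no Jun-family peak in B2B. They lay at 42.1 kb on an exon of CFL1, at 9.93 kb on one of CCDC85B and at -18.7 kb on exons of C11orf68 and DRAP1, with summed enrichments of 14.2, 14.5 and 25.8.

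FOSB had its strongest A549 regions within ERCC1 and at VASP. The region at -12.06 kb, in an ERCC1 intron, had Jun at 56.5-fold, JunB at 27.6-fold and JunD at 11.3-fold in A549, and Jun at 13.7-fold and JunB at 5.13-fold in B2B, with the printed AP-1 match 19 bp from the B2B Jun summit. The region at -43.5 kb, over an ERCC1 exon, had Jun at 58.03-fold in A549 and 15.9-fold in B2B. The region at 38.9 kb lies at the start of VASP, an actin regulator, with Jun at 30.2-fold in A549 and 3.10-fold in B2B. Over the floor the lines were closer. Jun was then 123-fold in A549 and 103-fold in B2B at -12.06 kb, and 91.2-fold and 46.2-fold at -43.5 kb. At 38.9 kb it was 54.6-fold on 108 reads in A549 and 40.2-fold on 86 reads in B2B. Regions with all 3 proteins in A549 and no Jun-family peak in B2B lay at -28.05, -24.3, -17.1 and 1.30 kb, with summed enrichments of 24.0, 32.001, 34.7 and 17.8. Of the 3 B2B regions with the highest summed enrichment, the one at -90.9 kb was called in B2B alone, for Jun at 10.9-fold. A CArG box lay 81 bp from its summit. Over the floor that region was 18.9-fold on 40 reads. This was below regions shared with A549 at the FOSB start, 47.6-fold on 102 reads, and at -62.2 kb, 46.2-fold on 99 reads. It was also below the one at 38.9 kb, so the order turned.

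FOS and FOSL2 had distal sites that differed by line. At FOS, regions at 15.4 kb, by the start of the non-coding gene LINC01220, and at 23.4 kb had all 3 proteins in A549 and none in B2B, with summed enrichments of 28.9 and 24.8. The first held a CArG box 4 bp from the JunD summit and the second an AP-1 match 3 bp from the Jun summit. In B2B the regions of FOS with the highest summed enrichment, at -56.4, -11.6 and -44.1 kb, had no A549 call. Jun was 19.7-fold, 17.5-fold and 12.4-fold there, and JunB was 4.93-fold at the last, over the AP-1 match printed above. Over the floor Jun was 22.6-fold, 24.0-fold and 21.3-fold there, below the regions shared with A549 at -1.74 kb, 39.3-fold, and at -19.7 kb, 36.5-fold, so the order turned. The region at -19.7 kb had Jun at 19.6-fold in A549 and 5.94-fold in B2B. Over the floor it was 25.6-fold on 50 reads in A549 and 36.5-fold on 78 reads in B2B, so the direction turned as at the start of FOS. At FOSL2 the B2B region at 16.6 kb, in an intron, had Jun at 15.9-fold and JunB at 4.56-fold, with the AP-1 match 16 and 27 bp from their summits, and no A549 call. At 53.2 kb both lines had Jun and JunB, with Jun at 41.0-fold in A549 and 18.2-fold in B2B. By summed enrichment FOSL2 was highest at its start in A549, 83.4, and at 53.2 kb in B2B, 24.3. Over the floor B2B Jun was 48.5-fold on 104 reads at the start and 35.1-fold on 75 reads at 53.2 kb, the opposite order.

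Over the 17 regions with a Jun peak in each line, the deposited fold enrichment was higher in A549 at 15, with a median ratio of A549 to B2B of 2.50 and a range from 0.471 to 12.2. Over the floors of the lists it was higher at 12, with a median ratio of 1.18 and a range from 0.383 to 1.97. The local background, in multiples of the floor, was higher in A549 at 3 of the 17.

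The regions beyond 3 kb were in part the promoters of neighbouring genes. Of 43 A549 regions there, 33 overlapped pol II, 28 H3K4me3, 10 of 14 covered H3K27ac and 14 of 19 covered Med1. Of 28 B2B regions, 14 overlapped pol II, 6 H3K4me3, 14 H3K27ac, 7 of 19 covered Med1, 8 CTCF and 7 Rad21. At FOSL2, with few neighbouring genes, 1 of 6 such A549 regions and 2 of 12 B2B regions overlapped pol II and none overlapped H3K4me3. An AP-1 match was inside 18 of the 43 and 12 of the 28.

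The AP-1 sequence lay within 50 bp of the summit of 40.4% of the 47 A549 JunB peaks within 100 kb (Wilson 95% interval 27.6 to 54.7), 32.7% of the 49 Jun peaks (21.2 to 46.6) and 26.9% of the 26 JunD peaks (13.7 to 46.1). Over the whole lists the shares were 46.2%, 42.0% and 34.2%, inside each interval. In B2B it lay by 85.7% of the 7 JunB peaks (48.7 to 97.4) and 34.4% of the 32 Jun peaks (20.4 to 51.7), against 53.6% and 39.8% over the lists, and by the 1 JunD peak. The peaks of the 3 proteins share sites, and the intervals cover counting error alone. The CRE lay by 1 of the 49 Jun and 1 of the 26 JunD peaks of A549 and by 2 of the 32 Jun peaks of B2B. Over those lists the shares were 1.74%, 2.21% and 0.95%. A CArG box lay by 1 of the 47 JunB and 2 of the 26 JunD peaks of A549 and by 1 of the 32 Jun peaks of B2B, against 0.271%, 0.28% and 0.493% of the lists.

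A wider list of 32 genes, holding the Jun genes, other AP-1 partners and the kinases and factors that act on them, gives the setting of the 4 members. In A549 16 of the 32 had a JunB peak within 3 kb, 19 a Jun peak and 11 a JunD peak. In B2B 3, 15 and 0 did. Over all genes the shares were 31.1%, 38.2% and 17.8% in A549 and 5.28%, 25.4% and 3.21% in B2B. All 3 proteins were called in A549 at 9 of the 32, namely JUN, JUND, ATF3, MAFF, MAFK, CREB1, MAPK8, MAP2K1 and DUSP1, and in B2B at none. Over all genes 13.7% had all 3 in A549 and 2.61% in B2B, so 0 of 32 in B2B is near that share. MAP2K1, which encodes the kinase MEK1 upstream of FOS induction, was the 1 of the 9 with no Jun-family peak in B2B. H3K4me3 marked 29 of the 32 in each line. The share of the wider list with a JunD peak in A549 was 34.4%, against 17.8% of all genes and 4 of the 4 members.

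The genes whose peaks were most like those of each member were found by the mean absolute difference in the percentile of the highest peak, over the lists that cover the member. A gene with no peak within 3 kb was scored at the bottom of the list. The low B2B Jun percentiles of FOS, FOSB and FOSL2 thus counted much like a missing peak. MAP3K8 was nearest to FOS, at 6.52 percentile points over 15 lists, followed by the histone genes H2AC19 and H3C15 at 6.57, which have near-identical copies that may share reads. H2AC18, MEPCE and H3C14 were nearest to FOSB, at 7.44, 7.70 and 7.99 points over 13 lists. RCN1 was nearest to FOSL1, at 5.45 points over 16 lists, followed by ENSG00000288635 and HGSNAT at 7.52 and 7.58. UCHL5, ISG15 and BRD2 were nearest to FOSL2, at 5.48, 6.13 and 6.54 points. The median over genes was from 31.1 to 41.3 points. FOSL1 and FOSL2 differed by 15.9 points, FOS and FOSL2 by 16.2 and FOS and FOSL1 by 23.3. On the 13 lists of FOSB, FOS was at 14.4 points, FOSL2 at 21.9 and FOSL1 at 25.2.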

How the data were processed

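ChIP-seq was carried out in A549 and BEAS-2B cells. Peaks were called by the authors with MACS2 2.2.7.1, on hg38 alignments from Bowtie2 2.4.4 that had been pooled over replicates after duplicate removal. The study's methods also name CPM normalization between the lines with SAMtools 1.13, so that pooled reads may be scaled. The options and control of the caller are not given in the sources used here. The authors deposited, per peak, the fold enrichment (a ratio of summit reads to local background) and the −log10 p-value and −log10 q-value. The lowest deposited −log10 q was just above 2.

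Start sites came from GENCODE 44. A peak counted if it overlapped a window by 1 bp. Summit reads and background were solved from fold enrichment and p under the Poisson model of the caller. They were solved for the peaks described and for a regular sample of each list, which gave the floors, medians and shares by reads. Functions were tested on simulated data. Python 3.11.15, NumPy 2.4.6, SciPy 1.17.1 and matplotlib 3.10.9 were used.

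The members, lists and rules were chosen with earlier results of these data known. Named regions were, per member, the 3 with the highest summed enrichment in each line and those with all 3 proteins in 1 line and none in the other. Named neighbours were the protein-coding gene whose start is nearest to such a region and genes starting within 3 kb of a member. For like genes, 3 per member were named. The score column was not used. Alternatives changed the window, the q-value threshold, the start sites, the list lengths, the joining of regions and the motif window.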

Additional observations from a re-analysis of the deposited data

How the results depend on the processing

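Of 176 values recomputed under an alternative, 142 stayed within their spread or 1.5 times the count, 33 moved and 1 reversed. Of the 86 recomputed counts of members with a peak, 85 stayed within 1.5 times the count. JunB in A549 had 3 of 4 members with lists of equal length, and Jun in B2B had 2 of 4 within 1 kb.

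At 200 kb the regions of A549 and B2B numbered 18 and 14 at FOS, 18 and 6 at FOSL1 and 21 and 22 at FOSL2, and B2B had 16 at FOSB. At 50 kb B2B had 6 at FOSB, and FOSL2 had 6 and 7. With lists of equal length FOSL2 had 6 in A549. The excess of A549 over B2B at FOS, 2 regions, was 4 at 50 kb, 4 at 200 kb, 1 at a −log10 q of at least 5, 0 with lists of equal length and 6 with summits within 100 bp joined. At FOSL2 it was -3, and -1 at 50 kb, at 200 kb, at a −log10 q of at least 5 and with joined summits. With lists of equal length it was -4 at FOSL2. The share of peaks with the AP-1 sequence within 25 bp was 17.0% for JunB in A549, 42.9% for JunB in B2B and 0% for the 1 JunD peak in B2B.

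Over the floor of each list, an alternative added after seeing the data, the highest Jun peak was 15.0-fold in A549 and 39.3-fold in B2B at FOS, so that the difference of 7.11 reversed to -24.2. It was 52.1-fold and 47.6-fold at FOSB, a difference of 4.52. In B2B it was 48.5-fold at FOSL2, a difference of 22.1. At FOSL1 it was 41.6-fold in B2B, at the upstream site, and the difference of 18.0 is from the intronic site of A549, whereas at the shared site A549 was 49.1-fold.

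No paired analysis was possible because each list pools its replicates and no replicate was left out. Depth per library is unknown from the lists. The local background in B2B limits calls at the starts of all 4 members and at some distal regions.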
